A study of Mus musculus with 24 samples.

Results

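DNA repair genes were followed in the lungs of mice from 2 lines that had received a carcinogen or saline. The set was a list of 44 genes of direct reversal, base excision, nucleotide excision, mismatch, double-strand break, interstrand crosslink and translesion repair, found by their gene symbols on the array. Of these, 43 had at least 1 probe, 75 probes in all of the 25697 on the array, and Fanca was not analysed here. For 40 genes at least 1 probe rose above background on 3 or more arrays, and these 40 genes, with 64 probes, were among the 13502 genes and 18592 probes that were tested. Brca1 and Nbn, which act in recombination and in sensing double-strand breaks, stayed at or below the background limit on all arrays (highest log2 signals 7.64 and 7.62 against a limit of 7.90). Xrcc5, which encodes the larger subunit of the Ku end-joining complex, passed the limit on 1 array, with a log2 signal of 8.05. The 3 genes are given no difference.

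The AIRmax and AIRmin lines come from selective breeding, AIRmax for a strong and AIRmin for a weak acute inflammatory response. AIRmax urethane mice, AIRmax saline mice, AIRmin urethane mice and AIRmin saline mice formed 4 groups of 6, each with 3 males and 3 females. All mice had 2 intraperitoneal injections, of urethane at 1 mg per g of body weight or of saline, 48 h apart, and the lungs were taken 21 days later. RNA of normal lung parenchyma was hybridised to Illumina bead arrays, 1 array per mouse. The labels name no engineered allele in either line, and ages are not used here.

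Urethane is oxidised in the body to vinyl carbamate epoxide, which leaves etheno adducts on DNA bases. Etheno adducts are removed by a DNA glycosylase that starts base excision repair or are reversed directly by dioxygenases, and lesions still present at replication can be copied by translesion polymerases. Nucleotide excision repair cuts out bulky, helix-distorting lesions, mismatch repair corrects replication errors, and recombination and end joining restore broken ends.

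Several libraries stood apart from the rest. Lung markers were high in all groups, with log2 signals of Sftpc, the surfactant protein of alveolar type 2 cells, between 15.91 and 16.08. Scores for stratified squamous epithelium (log2 signal relative to each gene's median of all 24 mice, averaged over the 10 tested genes of 13 listed) ran from -0.32 to 4.19 in AIRmax urethane mice, -0.26 to 1.53 in AIRmax saline mice, -0.18 to 3.97 in AIRmin urethane mice and -0.21 to 4.35 in AIRmin saline mice. Scores above 1 were found in 2 AIRmax urethane, 1 AIRmax saline, 2 AIRmin urethane and 5 AIRmin saline mice, and Krt6a was below the limit on all arrays. Skeletal muscle scores (9 tested genes of 10) ran from -2.29 to 2.74 in AIRmax urethane, -2.44 to 0.10 in AIRmax saline, -2.14 to 2.11 in AIRmin urethane and -2.33 to 2.32 in AIRmin saline mice. They were above 1 in 1 AIRmax urethane, 0 AIRmax saline, 3 AIRmin urethane and 5 AIRmin saline mice. Neutrophil scores (8 tested genes of 10) had medians of 0.03 in AIRmax urethane and 0.78 in AIRmax saline mice, and of -0.52 in AIRmin urethane and -0.08 in AIRmin saline mice. The part of these tissues and cells in the urethane and line differences was not tested beyond the squamous alternatives given with them. AIRmax urethane mouse 4 had a hepatocyte score of 7.28, from 3 tested genes of 8. Of that list, Alb, Fgb and Tat were below the limit on all arrays. The array of AIRmin saline mouse 20, labelled female, had a log2 signal of 7.91 for Xist and 12.80 for Ddx3y, within the ranges of the 12 males (7.74 to 8.06 and 12.77 to 13.38) and outside those of the other 11 females (10.46 to 12.34 and 9.94 to 10.85). In whole lung, fewer cells of a type and less RNA per cell cannot be told apart. The treatment label showed in Cdkn1a, the cell cycle inhibitor p21, which had medians of 14.41 in AIRmax urethane mice and 12.95 in AIRmax saline mice, and of 13.92 in AIRmin urethane mice and 12.59 in AIRmin saline mice (log2 difference 1.49 ± 0.10 (SE), limma adjusted p = 8.07e-09).

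Over both lines, 2 of the 40 tested repair genes rose after urethane and none fell. Calls were made at each gene's brightest probe and a limma adjusted p under 0.05. Among all tested genes, 0.741% passed in either direction and 0.489% passed as higher. The repair genes that rose were Polk, which encodes the translesion DNA polymerase kappa, and Mgmt, which encodes the methyltransferase that takes alkyl groups off O6 of guanine. The members' log2 differences ran from -0.15 to 0.40 with a median of 0.01, against a median of -0.00 for all tested genes, and 9 members had an unadjusted p under 0.05.

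The promoter windows of the 2 genes are shown because these were the repair genes that rose after urethane and Cdkn1a rose beside them. RefSeq gives 2 transcript starts for each, and the 300 bases around a start are printed below for both Polk starts and for the upstream Mgmt start, on the gene's strand and build GRCm38.p6. Capitals mark a match to the p53 half-site.
Polk, chr13:96519138-96519437, minus strand: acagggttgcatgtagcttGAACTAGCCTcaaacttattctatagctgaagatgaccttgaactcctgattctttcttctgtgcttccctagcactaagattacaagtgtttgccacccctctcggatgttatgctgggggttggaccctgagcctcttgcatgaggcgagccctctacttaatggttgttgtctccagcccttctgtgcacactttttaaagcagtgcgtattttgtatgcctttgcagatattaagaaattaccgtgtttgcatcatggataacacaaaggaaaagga
Polk, chr13:96542530-96542829, minus strand: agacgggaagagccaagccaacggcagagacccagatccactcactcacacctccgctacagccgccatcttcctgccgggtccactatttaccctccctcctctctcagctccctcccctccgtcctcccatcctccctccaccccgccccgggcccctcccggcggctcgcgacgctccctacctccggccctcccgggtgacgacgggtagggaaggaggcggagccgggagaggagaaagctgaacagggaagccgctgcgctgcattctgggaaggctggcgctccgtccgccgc
Mgmt, chr7:136894336-136894635, plus strand: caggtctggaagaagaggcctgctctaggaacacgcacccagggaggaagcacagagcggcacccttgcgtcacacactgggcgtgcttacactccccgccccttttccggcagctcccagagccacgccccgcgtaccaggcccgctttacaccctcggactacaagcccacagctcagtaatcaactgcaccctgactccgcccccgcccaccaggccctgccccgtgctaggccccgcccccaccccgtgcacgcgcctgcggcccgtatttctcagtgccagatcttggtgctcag
The p53 half-site, the decamer that p53 binds in pairs, was searched on both strands and matched once in the first Polk window, that of the downstream start, and in neither the other Polk window nor the 2 Mgmt windows. It occurred in 8.36% of the 32851 windows of the RefSeq table, and a pair of half-sites in 0.0731%. Among the 40 windows found for 34 repair genes, 2 held a half-site (Polk and Neil1) and 0 held a pair. No window was found for Polb, Xpc, Ddb2, Ercc3, Rad50, Nbn, Fancd2, Rev3l and Rrm2b, and these were not searched. An E2F motif, searched as TTTCGCGC and TTTGGCGC on both strands, was in none of the Polk and Mgmt windows, in 3 of the 40 windows (Lig1, Msh3 and Nthl1) and in 0.813% of all windows. The half-site makes up each member of a pair, and the 2 E2F forms differ in 1 base. These are matches of letters and were not tested as binding sites.

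Polk (probe ILMN_1240630) had log2 signals of 10.25 to 10.87 with a median of 10.79 in AIRmax urethane mice, against 10.23 to 10.53 with a median of 10.33 in AIRmax saline mice. In AIRmin urethane mice it ranged from 10.56 to 10.94 with a median of 10.80, against 10.15 to 10.45 with a median of 10.34 in AIRmin saline mice. All 6 AIRmin urethane mice lay above every AIRmin saline mouse, whereas 4 of 6 AIRmax urethane mice lay above every AIRmax saline mouse, and AIRmax urethane mouse 4 was the lowest of its group. Over both lines, 10 of 12 urethane mice were above all saline mice, and the log2 difference was 0.40 ± 0.07 (SE, 95% interval 0.26 to 0.54), or 1.32-fold (limma adjusted p = 0.00495). Within lines it was 0.33 ± 0.10 in AIRmax (adjusted p = 0.257) and 0.47 ± 0.10 in AIRmin (adjusted p = 0.041). The AIRmin call ended without any one of 17 mice (adjusted p of 0.0502 to 0.153), with the squamous score as a covariate (0.37 ± 0.10, adjusted p = 0.278) and with the proliferation score as one (0.48 ± 0.10, adjusted p = 0.0522). The difference between those effects did not pass (-0.15 ± 0.14, limma adjusted p = 0.905). Without the 10 mice of squamous score above 1 the difference over both lines was 0.39 ± 0.08 with adjusted p = 0.104, and without AIRmax mouse 4 it passed within AIRmax.

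Mgmt (probe ILMN_2876448) was a dimmer signal, between 8.23 and 8.67 with a median of 8.45 in AIRmax urethane mice and between 7.85 and 8.43 with a median of 8.07 in AIRmax saline mice. In AIRmin urethane mice it lay between 8.24 and 8.59 with a median of 8.38, and in AIRmin saline mice between 7.89 and 8.36 with a median of 8.19. The treatments overlapped in each line, and 6 of 12 urethane mice were above all saline mice. The log2 difference was 0.29 ± 0.06 (SE, 95% interval 0.16 to 0.42), or 1.22-fold (limma adjusted p = 0.0336). It was 0.36 ± 0.09 in AIRmax (adjusted p = 0.134) and 0.22 ± 0.09 in AIRmin (adjusted p = 0.38). Leaving out any one of 13 mice ended the call, with adjusted p between 0.0516 and 0.0754, as did leaving out the mice of high squamous score (0.31, adjusted p = 0.21).

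**Figure D1:**
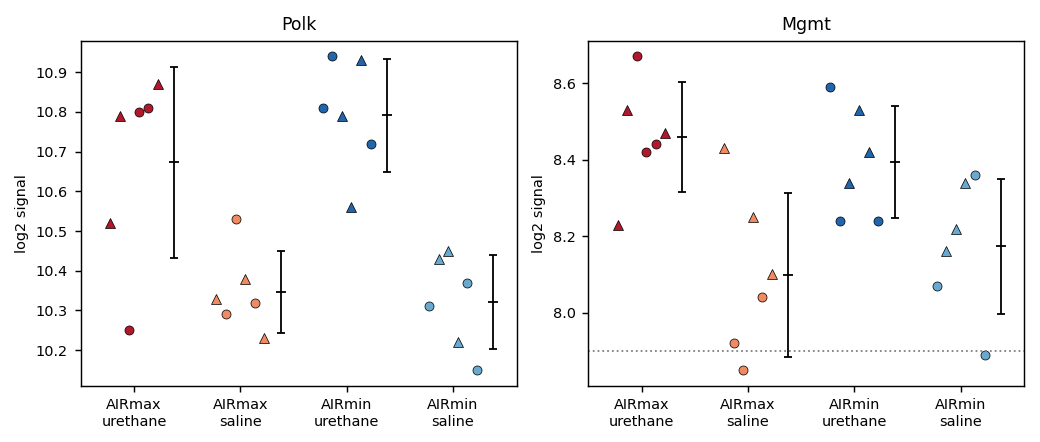
Log2 signal of Polk and Mgmt in each mouse, in the order AIRmax urethane, AIRmax saline, AIRmin urethane and AIRmin saline; triangles are males, circles are females, bars show the mean and SD of 6 mice, and the dotted line is the background limit of 7.90. Polk signals of AIRmin urethane mice lie between 10.56 and 10.94, above all AIRmin saline mice, while the Mgmt groups overlap in both lines.

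The other direct reversal genes, Alkbh2 and Alkbh3, encode dioxygenases that take alkyl and etheno groups off bases. Neither passed after urethane, with log2 differences of -0.03 ± 0.08 for Alkbh2 and -0.09 ± 0.06 for Alkbh3. Alkbh3 had a median of 12.13 in AIRmax urethane mice and 12.13 in AIRmax saline mice, and of 12.22 in AIRmin urethane mice and 12.32 in AIRmin saline mice.

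None of the 13 base excision genes passed after urethane. Their log2 differences ran from -0.15 to 0.34 with a median of -0.04, and 2 had an unadjusted p under 0.05. The smallest p was that of Mpg, the alkyladenine glycosylase that excises ethenoadenine (0.34 ± 0.11, limma adjusted p = 0.179). Its difference was 0.69 ± 0.15 in AIRmin (adjusted p = 0.0842, with 4 of 6 urethane and 2 of 6 saline arrays above the background limit) and -0.00 ± 0.15 in AIRmax (adjusted p = 0.997). The other Mpg probe was above the limit on all 24 arrays and differed less in AIRmin. Its mean log2 signals were 8.44 in AIRmin urethane and 8.15 in AIRmin saline mice. In AIRmax they were 9.02 in urethane and 9.04 in saline mice. The glycosylase Tdg, which acts on ethenocytosine and on mispaired thymine, had a difference of 0.04 ± 0.06, and the abasic-site endonuclease Apex1 had -0.15 ± 0.07 (adjusted p = 0.442). Ogg1, the glycosylase of 8-oxoguanine, had -0.13 ± 0.06 (adjusted p = 0.382). The glycosylases Ung, Mutyh, Neil1 and Nthl1, the strand break sensor Parp1, the scaffold Xrcc1, the gap-filling polymerase Polb and the ligases Lig1 and Lig3 lay between -0.08 and 0.04.

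Of the 10 nucleotide excision genes, none passed. Ercc5, the XPG endonuclease that cuts on the 3' side of a lesion, had the smallest p (0.19 ± 0.06 at its brightest probe, limma adjusted p = 0.168, and 0.23 with adjusted p = 0.0416 without AIRmax saline mouse 12), and Ercc4, the XPF subunit that cuts on the 5' side, was next to it (0.13 ± 0.05, adjusted p = 0.265). The damage sensors Xpa, Xpc, Ddb1, Ddb2 and Rad23b, the TFIIH helicases Ercc2 and Ercc3, and Ercc1, the partner of Ercc4, lay between -0.08 and 0.04. Msh6 had the smallest p of the 3 mismatch repair genes (0.14 ± 0.06, adjusted p = 0.336, and 0.14 ± 0.06 at its other probe), Mre11a, the nuclease that processes broken ends, of the 5 double-strand break genes (-0.13 ± 0.06, adjusted p = 0.332, and -0.04 ± 0.05 at each of its dimmer probes), and the crosslink repair gene Fancd2 had 0.07 ± 0.05 (adjusted p = 0.627). The other mismatch and double-strand break genes, Msh3, Pms2, Brca2, Rad50, Xrcc6 and Lig4, lay between -0.04 and 0.09. Among the 5 genes of translesion synthesis and nucleotide supply, Rev1, a scaffold for the other translesion polymerases, was second to Polk (0.27 ± 0.08, limma adjusted p = 0.139). Rev1 had medians of 9.68 in AIRmax urethane and 9.49 in AIRmax saline mice, and of 9.84 in AIRmin urethane and 9.57 in AIRmin saline mice, and 3 of 12 urethane mice were above all saline mice. Rev3l had 0.12 ± 0.07.

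Xpc, Ddb2, Rrm2b and Polh are known targets of p53 in human cells, and they were looked at together after their values had been seen. They are not a full list of p53 targets among the repair genes, and p53 targets were not tested as a set. Polk and Mgmt, which rose, were not put in this group, and whether p53 acts on them was not tested. Xpc and Ddb2 recognise lesions for nucleotide excision, Rrm2b supplies deoxynucleotides and Polh copies past pyrimidine dimers. The log2 difference after urethane was -0.04 ± 0.05 for Xpc (95% interval -0.14 to 0.07), 0.04 ± 0.05 for Ddb2 (-0.08 to 0.15, with 0.03 and -0.05 at its other tested probes), -0.06 ± 0.06 for Rrm2b (-0.18 to 0.06) and 0.01 ± 0.09 for Polh (-0.17 to 0.19). Changes of a size within these intervals were not detectable here.

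**Figure D2:**
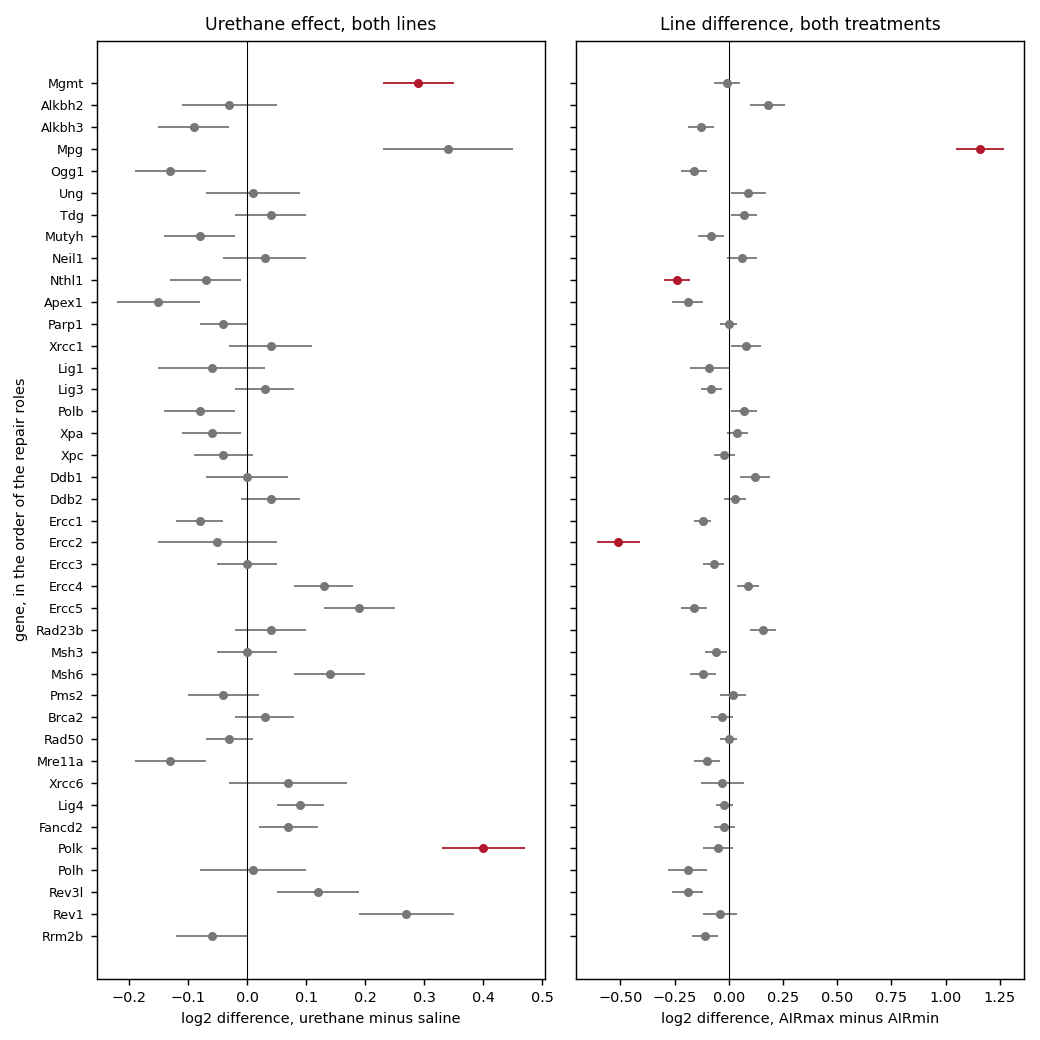
Log2 difference of each of the 40 tested repair genes at its brightest probe, urethane minus saline over both lines (left) and AIRmax minus AIRmin over both treatments (right); points are estimates, bars are 1 SE, and red marks an adjusted p under 0.05. Polk (0.40) and Mgmt (0.29) are red on the left, and Mpg (1.16), Nthl1 (-0.24) and Ercc2 (-0.51) are red on the right.

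Within one line, 0 of the 40 genes passed after urethane in AIRmax (4 with an unadjusted p under 0.05, limma), where 0.222% of all tested genes passed, and 1 rose in AIRmin (Polk), where 0.252% passed and 0.215% passed as higher. No repair gene passed the test for a line difference in its urethane response at an adjusted p under 0.05 (0 of 40, with 5 at an unadjusted p under 0.05), and 0% of all tested genes passed this test in limma. In simulated data this test recovered 43.5% of changes of 0.5 log2 and 8.5% of changes of 0.25, so smaller differences could be missed. The smallest p belonged to Mpg (-0.69 ± 0.22, adjusted p = 0.671) and to Brca2, which acts in homologous recombination (-0.29 ± 0.10, adjusted p = 0.671). Both were read at the brighter probe. At the other Brca2 probe, log2 signals were 8.19 to 8.66 in AIRmax urethane and 8.02 to 8.64 in AIRmax saline mice. They were 8.11 to 8.37 in AIRmin urethane and 8.16 to 8.58 in AIRmin saline mice. No repair gene had every urethane mouse above or below every saline mouse at its brightest probe, which 0.0667% (above) and 0% (below) of all tested genes had.

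The lines differed in more of the array than the treatments did. In the line difference over both treatments, 1 repair gene was higher in AIRmax and 2 were lower, 3 of 40, whereas 13.5% of all tested genes passed (6.46% higher and 7.07% lower). The higher gene was Mpg, and the lower genes were Nthl1, the glycosylase of oxidised pyrimidines, and Ercc2, the XPD helicase of the TFIIH complex. The members' median log2 difference was -0.03, against -0.00 for all tested genes, and 12 members had an unadjusted p under 0.05.

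At the brighter Mpg probe (ILMN_2600747), AIRmax urethane mice had log2 signals of 9.20 to 9.54 with a median of 9.49, against 7.75 to 9.33 with a median of 8.88 in AIRmin urethane mice. AIRmax saline mice had 9.33 to 9.60 with a median of 9.42, against 7.75 to 8.42 with a median of 7.86 in AIRmin saline mice. AIRmin urethane mice separated into 4 mice between 8.81 and 9.33 and mice 14 and 15 at 7.75 and 7.87, and in AIRmin saline mice 2 of 6 arrays were above the background limit. Of the 12 AIRmax mice, 11 were above all AIRmin mice. At this probe 6 of the 12 AIRmin arrays were at or below the background limit, so the differences that follow for it are against a floor and are lower bounds. The fitted log2 difference was 1.16 ± 0.11 (SE), or at least 2.23-fold (limma adjusted p = 5.69e-07), and 0.73 ± 0.08 at the other probe, which was above the limit on all 24 arrays (adjusted p = 7.55e-06). At the brighter probe it was at least 0.81 ± 0.15 in urethane mice (adjusted p = 0.00399) and at least 1.50 ± 0.15 in saline mice (adjusted p = 5.51e-06). At the other probe it was 0.58 ± 0.12 in urethane mice (adjusted p = 0.00814) and 0.89 ± 0.12 in saline mice (adjusted p = 0.000113). By label, mice 7, 8 and 17 of the AIRmin urethane group were female and mice 13, 14 and 15 were male. The part of sex in this split was not tested. The 4 brighter AIRmin urethane mice included mice 7 and 17, with squamous scores of 3.97 and 3.24, and mice 8 and 13, with scores of -0.18 and -0.08. The skeletal muscle score was 2.11 in mouse 7, 1.24 in mouse 17, 1.88 in mouse 8 and -2.14 in mouse 13. Without the 10 mice of high squamous score the line difference was 1.18. That fit was additive, with no term for a line difference that varies with treatment. It left out 5 AIRmin saline mice and kept only mouse 18 of that group. The part of squamous tissue in the Mpg difference was not tested further.

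Ercc2 at its brighter probe (ILMN_1233075) had log2 signals of 9.25 to 9.85 with a median of 9.43 in AIRmax urethane mice, against 9.22 to 10.16 with a median of 9.80 in AIRmin urethane mice. AIRmax saline mice had 9.25 to 9.39 with a median of 9.34, against 9.69 to 10.41 with a median of 10.02 in AIRmin saline mice. The lines did not overlap in saline mice and overlapped widely in urethane mice. The log2 difference was -0.51 ± 0.10 over both treatments (limma adjusted p = 0.00129), -0.72 ± 0.13 in saline mice (adjusted p = 0.00287) and -0.31 ± 0.13 in urethane mice (adjusted p = 0.227). The other probe, near the background limit, did not pass (-0.11 ± 0.06, adjusted p = 0.244). Squamous scores were above 1 in 1 AIRmax saline mouse and in 5 AIRmin saline mice, and with the score as a covariate the saline difference was -0.54 ± 0.17 (adjusted p = 0.13). Single mice went both ways. AIRmin saline mouse 18, with a score of -0.21, had the lowest Ercc2 signal of its group (9.69), whereas AIRmax saline mouse 9, with a score of 1.53, was the lowest of its group (9.25) and AIRmin urethane mouse 13, with a score of -0.08, was the highest of its group (10.16). AIRmax urethane mouse 2, with a score of 3.27, had 9.32, and mouse 4, with a score of 4.19, was the highest of that group (9.85). In AIRmin urethane mice, mouse 7, with a score of 3.97, had 10.10, and mouse 14, with a score of -0.14, was the lowest (9.22). The part of squamous tissue in the values of single mice was not tested. Without the mice of high score the difference over both treatments was -0.34 ± 0.13 (adjusted p = 0.186).

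Nthl1 (probe ILMN_1238562) had log2 signals of 9.61 to 10.15 in AIRmax urethane mice, against 9.94 to 10.28 in AIRmin urethane mice, and of 9.62 to 10.19 in AIRmax saline mice, against 9.93 to 10.37 in AIRmin saline mice. The lines overlapped, with 7 of 12 AIRmax mice below all AIRmin mice. The log2 difference was -0.24 ± 0.06 (SE, limma adjusted p = 0.0179), -0.27 in urethane mice (adjusted p = 0.108) and -0.20 in saline mice (adjusted p = 0.196). Without the mice of high squamous score it was -0.26 ± 0.13 (adjusted p = 0.291).

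**Figure D3:**
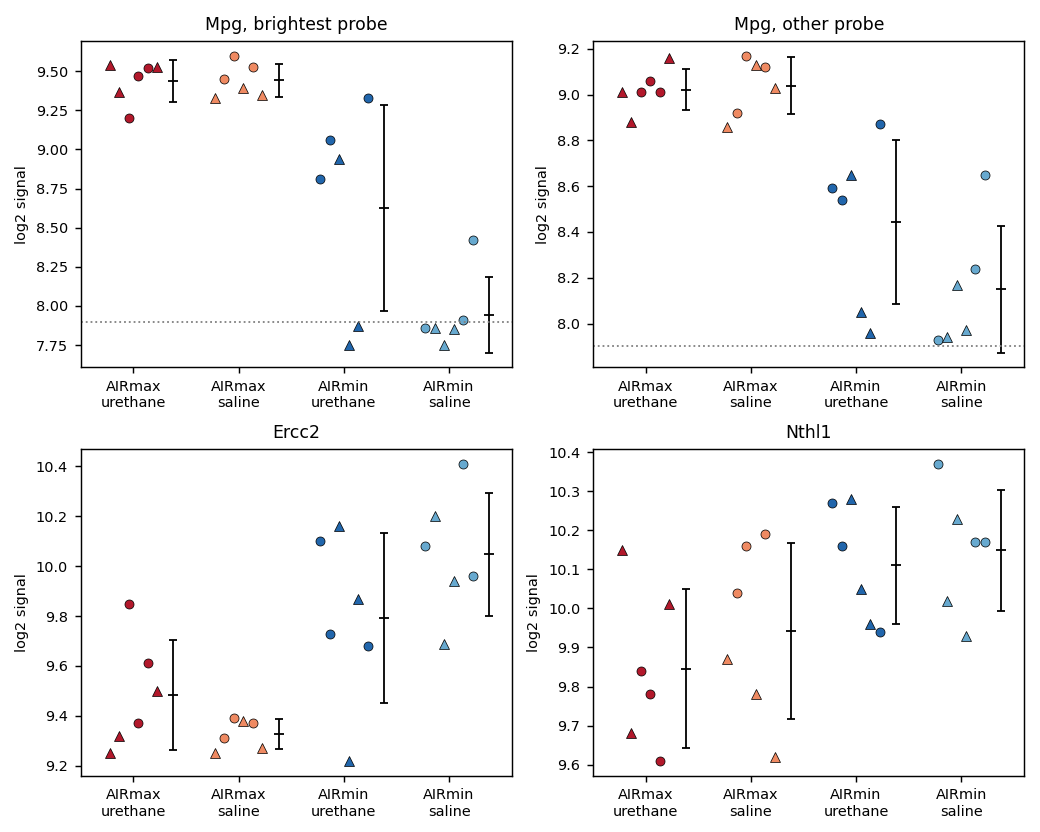
Log2 signal in each mouse of Mpg at its brightest probe and at its other probe, and of Ercc2 and Nthl1 at the brightest probe. Groups are in the order AIRmax urethane, AIRmax saline, AIRmin urethane and AIRmin saline. Triangles are males, circles are females, bars show the mean and SD of 6 mice, and the dotted line is the background limit of 7.90. At its brightest probe Mpg is between 7.75 and 8.42 in AIRmin saline mice, spreads from 7.75 to 9.33 in AIRmin urethane mice, and lies between 9.20 and 9.60 in AIRmax mice.

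The probes of Ercc5 disagreed between the lines. At the brightest probe (ILMN_2984462) the line difference was -0.16 ± 0.06 (limma adjusted p = 0.0734), with medians of 11.74 in AIRmax urethane and 11.84 in AIRmin urethane mice and of 11.47 in AIRmax saline and 11.67 in AIRmin saline mice. At the other probe (ILMN_2769261) AIRmax mice had log2 signals of 11.25 to 12.22, against 10.74 to 11.08 in AIRmin mice. All 12 AIRmax mice were above all AIRmin mice at that probe. Its difference was 0.95 ± 0.08 (SE), or 1.94-fold (limma adjusted p = 2.69e-07), 0.98 ± 0.12 in urethane mice (adjusted p = 4.39e-05) and 0.93 ± 0.12 in saline mice (adjusted p = 7.27e-05). Because the probes differ in sign, the direction for Ercc5 as a gene is uncertain, and which transcript each probe reads was not tested.

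**Figure D4:**
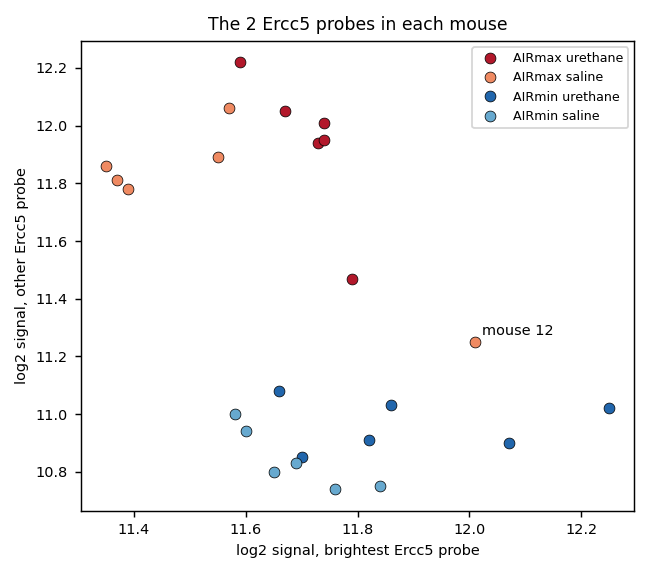
Log2 signal of the 2 Ercc5 probes in each mouse, with the brightest probe (ILMN_2984462) on the horizontal axis and the other (ILMN_2769261) on the vertical axis. Each circle is a mouse, coloured by group (AIRmax urethane, AIRmax saline, AIRmin urethane or AIRmin saline). AIRmax saline mouse 12 is labelled. The 12 AIRmax mice lie between 11.25 and 12.22 and the 12 AIRmin mice between 10.74 and 11.08 at probe ILMN_2769261, while the lines overlap at probe ILMN_2984462.

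No member passed between the lines in the other roles. The smallest p was that of Alkbh3 among direct reversal genes (-0.13 ± 0.06, limma adjusted p = 0.152), Msh6 among mismatch genes (-0.12 ± 0.06, adjusted p = 0.198) and Mre11a among double-strand break genes (-0.10 ± 0.06, adjusted p = 0.237). Rev3l, the catalytic subunit of polymerase zeta, had it among translesion genes (-0.19 ± 0.07, adjusted p = 0.0768), and Fancd2 had -0.02 ± 0.05. Alkbh2 had a difference of the opposite sign to Alkbh3 and did not pass (0.18 ± 0.08, adjusted p = 0.162), with medians of 8.49 in AIRmax urethane and 8.37 in AIRmin urethane mice and of 8.65 in AIRmax saline and 8.39 in AIRmin saline mice. Apex1 (-0.19 ± 0.07, adjusted p = 0.0948), Ogg1 (-0.16 ± 0.06, adjusted p = 0.0875), Ercc1 (-0.12 ± 0.04, adjusted p = 0.0733) and Rad23b (0.16 ± 0.06, adjusted p = 0.104) were near the threshold and did not pass. In urethane mice alone 1 gene passed (Mpg, higher), where 3.84% of all tested genes did (1.64% as higher), and in saline mice alone 2 passed (Mpg higher, Ercc2 lower), where 7.04% did (3.24% as higher and 3.79% as lower). At their brightest probes, 0 of the 40 genes had all AIRmax mice above all AIRmin mice and 0 had all below, against 0.296% and 0.259% of all tested genes.

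Between males and females, 0 of the 40 genes passed (limma, 5 with an unadjusted p under 0.05), where 0.119% of all tested genes did. The smallest p belonged to Xrcc1, the scaffold of single-strand break repair (male minus female 0.19 ± 0.07, adjusted p = 0.214), and Rad23b, the partner of Xpc (0.18 ± 0.06, adjusted p = 0.219). The count was 0 also without mouse 20, whose array did not match its sex label.

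A second list held 118 further repair and replication-linked genes, of which 78 were tested. After urethane 0 of them passed (limma, 8 with an unadjusted p under 0.05), where 0.741% of all tested genes did. In the line difference 10 of the 78 passed, and 13.5% of all tested genes did. Of the 10, 1 was higher in AIRmax (Rad1, a subunit of the checkpoint clamp, 0.19 ± 0.06) and 9 were lower. Of all tested genes, 6.46% passed as higher and 7.07% as lower. Dut, which keeps uracil out of DNA by breaking down dUTP, had 8.19 to 8.78 in AIRmax mice, against 8.58 to 9.07 in AIRmin mice (-0.40 ± 0.06, limma adjusted p = 0.000336). The clamp loader subunit Rfc5 (-0.31 ± 0.07, adjusted p = 0.00656) and the sliding clamp Pcna (-0.31 ± 0.09, adjusted p = 0.0346) were lower too, as were Rfc3, Msh5, Parp2, Gtf2h1 and Brcc3, whose differences ran from -0.24 to -0.11. Of 16 proliferation markers, 10 were tested, 1 was lower in AIRmax (Plk1) and 0 passed after urethane, beside the same shares of all tested genes. The marker scores ran from -0.47 to 0.39 in AIRmax urethane, -0.05 to 0.31 in AIRmin urethane, -0.67 to 0.26 in AIRmax saline and -0.41 to 0.42 in AIRmin saline mice. With the proliferation score as a covariate 6 of the 78 genes were lower and 0 higher, and without the mice of high squamous score 2 were lower and 1 higher.

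**Figure D5:**
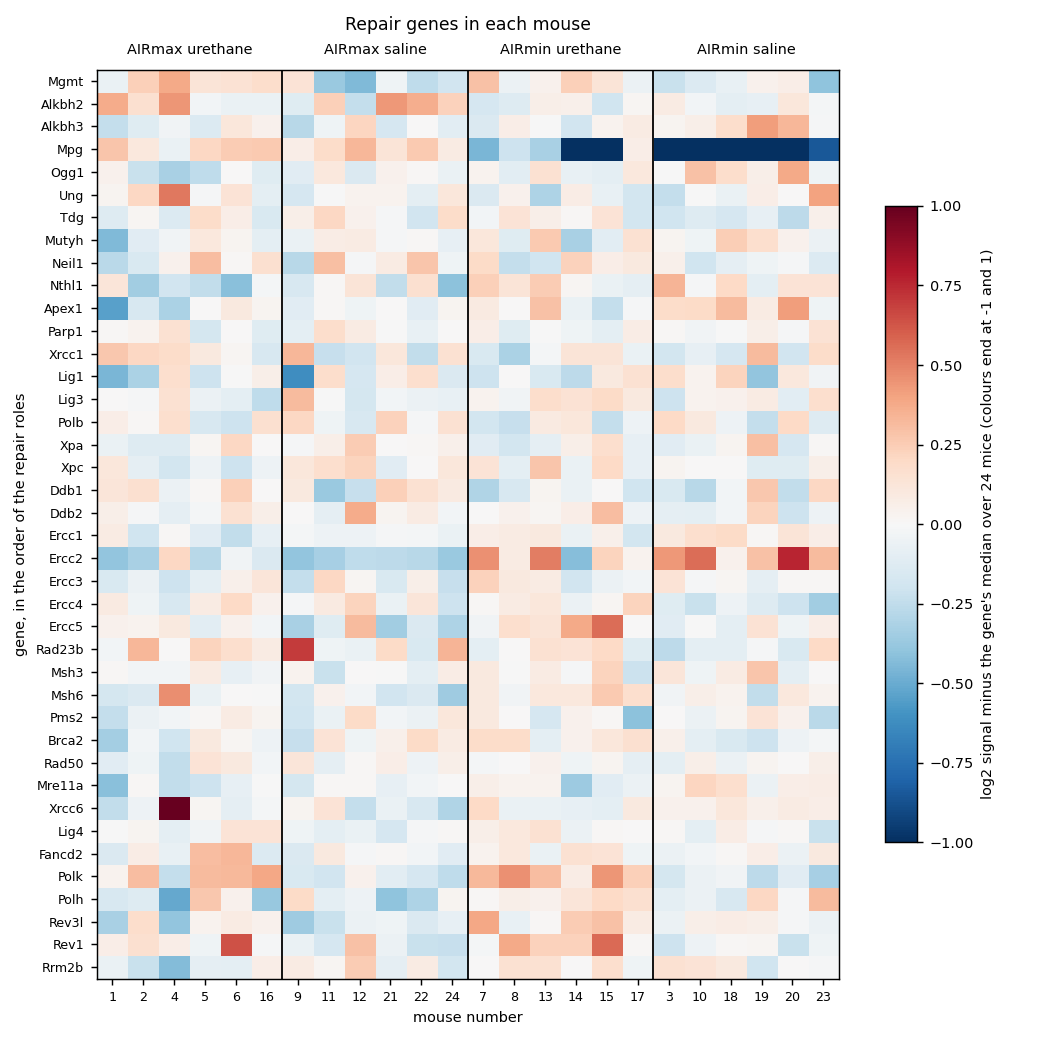
Log2 signal of each tested repair gene at its brightest probe in each mouse, relative to that gene's median of all 24 mice; columns are mice in the order AIRmax urethane, AIRmax saline, AIRmin urethane and AIRmin saline, rows are genes by repair role, and colours end at -1 and 1. The Mpg row is darkest blue in AIRmin saline mice and in AIRmin urethane mice 14 and 15, and the Xrcc6 row is darkest red in AIRmax urethane mouse 4.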

How the data were processed

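Groups, sex and mouse numbers came from the sample titles. The values were the deposited signal intensities of the series' value table, linear and already normalized. Per the submitters' processing notes BeadStudio was used, with no version given. Sorted intensities differed by at most 0.871% between arrays, and no source used here gives the background handling. The other tables hold 72 columns of per-array values named by slide, which match no sample label. They were not used except for probe names and gene symbols, so slide could not be tested as a batch and the deposited values were tested in place of the planned renormalization.

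The log2 intensities were fitted with limma 3.58.1 in R 4.3.3 (lmFit, eBayes) with 8 means of line, treatment and sex and 16 residual degrees of freedom. The background limit, log2 7.90 (intensity 238.5), is the 0.01 upper tail of the spread of 0.211 below the mode of 7.41. Probes above it on at least 3 arrays were tested. Benjamini-Hochberg adjustment ran over the 18592 probes tested, and an adjusted p under 0.05 was a call. A gene was read at its probe with the highest mean. The number of arrays limits the precision. Recovery was tested on simulated data. Changes of 0.5 and 0.25 log2 were recovered in 90.5% and 56% of changed probes for urethane over both lines. For urethane in AIRmax these were 78.5% and 20.5%. Promoters came from RefSeq, GRCm38.p6.

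Named were members that passed, and otherwise the member with the smallest p in each role, or the 2 smallest for sex and interaction. One gene of the further repair list is counted but not reported here. Members and lists were chosen with earlier results of these data known. Alternatives were other offsets, normexp, filters, sex term, prior, array weights, probe means, squamous or proliferation covariates, the arrays compared only, and each mouse left out.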

Additional observations from a re-analysis of the deposited data

Results flagged for a closer look

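In groups of 6 mice, 11 of the 168 combinations of group and probe of a repair gene (6.55%) held 1 mouse far from the other 5, and chance flags about 1 in 20 groups. In AIRmax urethane mice, mouse 4 had log2 signals of 13.02 for Xrcc6, the smaller Ku subunit, against 11.71 to 11.98 in the others, and 12.32 for Msh6, against 11.68 to 11.86. Mouse 4 was the highest of its group at all 3 Xrcc6 probes and was the mouse with the hepatocyte score of 7.28; the part of other tissue in these values was not tested. Mouse 6 of that group had 10.25 for Rev1, against 9.57 to 9.77.

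In AIRmax saline mice, mouse 12 was far from the others for 5 probes. Its log2 signals were 11.99 for Xpa (others 11.73 to 11.80), 10.51 for Ddb2 (10.05 to 10.22), 9.90 for Rev1 (9.38 to 9.55), 12.01 for the brightest Ercc5 probe (11.35 to 11.57) and 11.25 for the other Ercc5 probe (11.78 to 12.06). The last was low where the first Ercc5 probe was high. Mouse 9 had 10.67 for Lig3, against 10.18 to 10.35.

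In AIRmin urethane mice, mouse 15 had 10.45 for Ddb2, against 10.09 to 10.21. In AIRmin saline mice, mouse 23 had 8.42 for Mpg, against 7.75 to 7.91, and that group had 2 of 6 arrays above the background limit.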

How the results depend on the processing

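No paired analysis was possible because no mouse number occurs more than once. Of the 40 repair genes, the count after urethane over both lines was 2, and it was 3 with array weights (with Rev1), 3 with the mean of a gene's probes (with Ercc5), 1 with no sex term, 1 with the proliferation covariate, 0 without the mice of squamous score above 1, and 1 to 2 with each mouse left out, where Ercc5 took the place of Mgmt without mouse 12. In AIRmax the count of 0 was 1 with array weights (Polk), and 0 to 1 with a mouse left out (Polk, without mouse 4). In AIRmin the count of 1 was 2 with array weights (Mpg and Polk), 0 with the squamous covariate, 0 with the proliferation covariate, 0 with normexp and the squamous covariate together (chosen after seeing the data), and 0 to 2 with a mouse left out. The line count of 3 was 8 with array weights and 1 without the mice of high squamous score (Mpg), and 3 to 5 with a mouse left out. Array weights added Ercc1, Ercc5, Rad23b, Msh6 and Rev3l, and leaving out mouse 4 added Ercc1 and Msh6. In urethane mice the line count of 1 was 2 with the mean of a gene's probes (Mpg and Ercc5), 0 with only the arrays compared, where Mpg had adjusted p = 0.0577, and 1 to 2 with a mouse left out. In saline mice the count of 2 was 8 with array weights, 1 with the squamous covariate, 1 with normexp and that covariate, and 2 to 3 with a mouse left out. The interaction count was 0 throughout, and the sex count was 0 to 1 with a mouse left out (Mpg, without mouse 13). The line difference of Fancd2 changed sign to 0.02 with array weights and, with a mouse left out, ran from -0.04 to 0.02 (positive without mouse 4). The line calls of Mpg over both treatments (0.95 to 1.39 at the brighter probe) and in saline mice held under all alternatives run. The cause of these changes was not tested. Over all probes, array weights gave 499, 178, 3750, 3054 and 61 calls, against 133, 48, 2414, 1244 and 21, after urethane, after urethane in AIRmin, between lines, between lines in saline mice and between sexes, and without the mice of high squamous score there were 23 after urethane and 715 between lines. Not run without those mice were the comparisons within a line or treatment and the interaction, whose terms that additive fit lacks.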

Other observations

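Repair genes varied between mice about as much as other genes. The range of the log2 signal over the 24 mice had a median of 0.67 over the 40 tested repair genes, against 0.69 over all tested genes. It was smallest for Parp1, the poly(ADP-ribose) polymerase that senses strand breaks (0.35), Lig4, the ligase of end joining (0.38), and Rad50, the partner of Mre11a (0.39). It was largest for Mpg (1.86), Xrcc6 (1.36, with mouse 4 the highest) and Ercc2 (1.19).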
